A study of Mus musculus with 3 samples.

Results

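The Kruppel-like factors (KLFs) are zinc finger transcription factors that bind GC-rich boxes in promoters and enhancers. The 9 genes described here are Klf2, Klf3, Klf4, Klf5, Klf6, Klf7, Klf9, Klf10 and Klf13, out of 21883 protein-coding genes on the assembled mouse chromosomes. Their ETV5 and H3K4me3 peaks were taken as every deposited peak that shared at least 1 base with the gene body or with the 20 kb on either side. This gave 39 of the 31165 ETV5 peaks and 18 of the 15134 H3K4me3 peaks, and no peak belonged to more than 1 of the genes.

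The series holds 3 samples from alveolar type II (AT2) cells, the surfactant-producing epithelial cells of the lung, of C57BL/6 mice aged 10 to 12 weeks. Chromatin fixed with formaldehyde was immunoprecipitated in 1 sample for the ETS-family transcription factor ETV5. In another it was immunoprecipitated for trimethylated lysine 4 of histone H3 (H3K4me3), which marks active promoters, and the remaining sample is input DNA. The labels name no mutation or treatment, and they do not say how many animals were pooled. With 1 library per antibody, no value below has a replicate check and no test between libraries was made. The intervals given are exact 95% intervals. Those of fragment counts cover counting error only, and those of shares treat peaks as independent of each other.

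The family falls into groups by the partner proteins that its members recruit. KLF2, KLF4, KLF5, KLF6 and KLF7 act mostly as activators, KLF3 is a repressor that recruits the CtBP corepressors, and KLF9, KLF10 and KLF13 can recruit the SIN3 corepressor. In the lung, KLF5 is needed in the epithelium for maturation before birth in the mouse, and KLF2 is also known as lung Kruppel-like factor. ETV5 belongs to the PEA3 group of ETS factors, which act downstream of FGF and ERK signalling and bind DNA around a GGAA core.

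Start sites and promoter sequence came from the RefSeq promoter table of build GRCm38.p6, which held 7 of the 9 genes and not Klf5 or Klf10. Klf13 had the highest ETV5 fold enrichment (defined below), Klf9 the highest H3K4me3 fold, Klf3 the most GC boxes and Klf2 the lowest of both folds. Shown are the 250 bases before the start of each of these 4 genes. Each is written 5′ to 3′ along the gene, and capitals mark GGAA, the GC box GGGCGG and the CACCC box CCACCC, each on either strand.
Klf13, chr7:63938916-63939165, minus strand: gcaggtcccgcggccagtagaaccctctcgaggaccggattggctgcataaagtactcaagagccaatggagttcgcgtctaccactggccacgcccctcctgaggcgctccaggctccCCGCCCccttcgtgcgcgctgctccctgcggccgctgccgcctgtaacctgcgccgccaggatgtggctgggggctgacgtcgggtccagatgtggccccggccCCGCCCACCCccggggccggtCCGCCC
Klf9, chr19:23140976-23141225, plus strand: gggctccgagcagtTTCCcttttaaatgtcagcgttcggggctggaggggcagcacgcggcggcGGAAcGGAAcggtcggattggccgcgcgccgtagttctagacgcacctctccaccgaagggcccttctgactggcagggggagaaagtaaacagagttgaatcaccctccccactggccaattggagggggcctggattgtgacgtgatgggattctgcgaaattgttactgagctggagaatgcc
Klf3, chr5:64803271-64803520, plus strand: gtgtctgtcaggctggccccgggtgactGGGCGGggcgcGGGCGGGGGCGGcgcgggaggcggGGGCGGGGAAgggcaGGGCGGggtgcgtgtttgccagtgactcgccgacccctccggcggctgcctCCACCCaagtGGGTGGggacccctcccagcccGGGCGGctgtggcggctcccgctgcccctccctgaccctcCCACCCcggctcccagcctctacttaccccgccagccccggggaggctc
Klf2, chr8:72318812-72319061, plus strand: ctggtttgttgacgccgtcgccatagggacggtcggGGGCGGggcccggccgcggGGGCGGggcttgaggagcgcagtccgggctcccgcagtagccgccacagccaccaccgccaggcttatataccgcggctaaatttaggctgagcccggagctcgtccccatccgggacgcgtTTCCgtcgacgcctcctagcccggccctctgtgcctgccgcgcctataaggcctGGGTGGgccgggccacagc
In these 4 windows every base lay under an ETV5 peak and under an H3K4me3 peak.

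The longer ETS core CCGGAA was in none of the 7 windows on either strand, and it was in 15.0% of the 21262 windows of protein-coding genes. The full site CCGGAAGT was likewise in none, against 3.79% of all windows, and the CRE palindrome TGACGTCA was in none, against 1.92%. The short core GGAA, searched after the data were seen, was in 6 of the 7, all but Klf13, and in 93.2% of all windows. GC boxes were in 6 of the 7, all but Klf9, against 42.6% of all windows, with 6 copies in Klf3, 4 in Klf4 and 3 in Klf13. The CACCC box was in 4 of the 7, with 3 copies each in Klf3 and Klf7 and 1 each in Klf2 and Klf13, against 30.2% of all windows, and in Klf13 its copy overlapped a GC box. The 7 windows held 59.2 to 78.4% G and C, and the median of all windows was 55.6%. Matches describe the letters of these windows only.

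All 9 genes had at least 1 ETV5 peak, and 68.6% of protein-coding genes did. All 9 also had an H3K4me3 peak, against a background of 66.0%. Among the 14435 genes with H3K4me3 in the same window, 96.2% had ETV5, so the presence of both was shared with most marked genes. The strength of an ETV5 peak is given below as the authors' fold enrichment, the fragments piled up at the summit over the local input background with 1 added to both. The highest ETV5 fold per gene ranged from 9.74 at Klf2 to 41.4 at Klf13, with a median of 20.9. Over all protein-coding genes with an ETV5 peak in the window the median was 16.9, and over those that also had H3K4me3 it was 18.2. A fold of at least 10 was reached at 8 of the 9 genes, all but Klf2, where the background was 51.4%, or 77.1% of the genes with H3K4me3. These counts lie near the shares of marked genes.

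**Figure D1:**
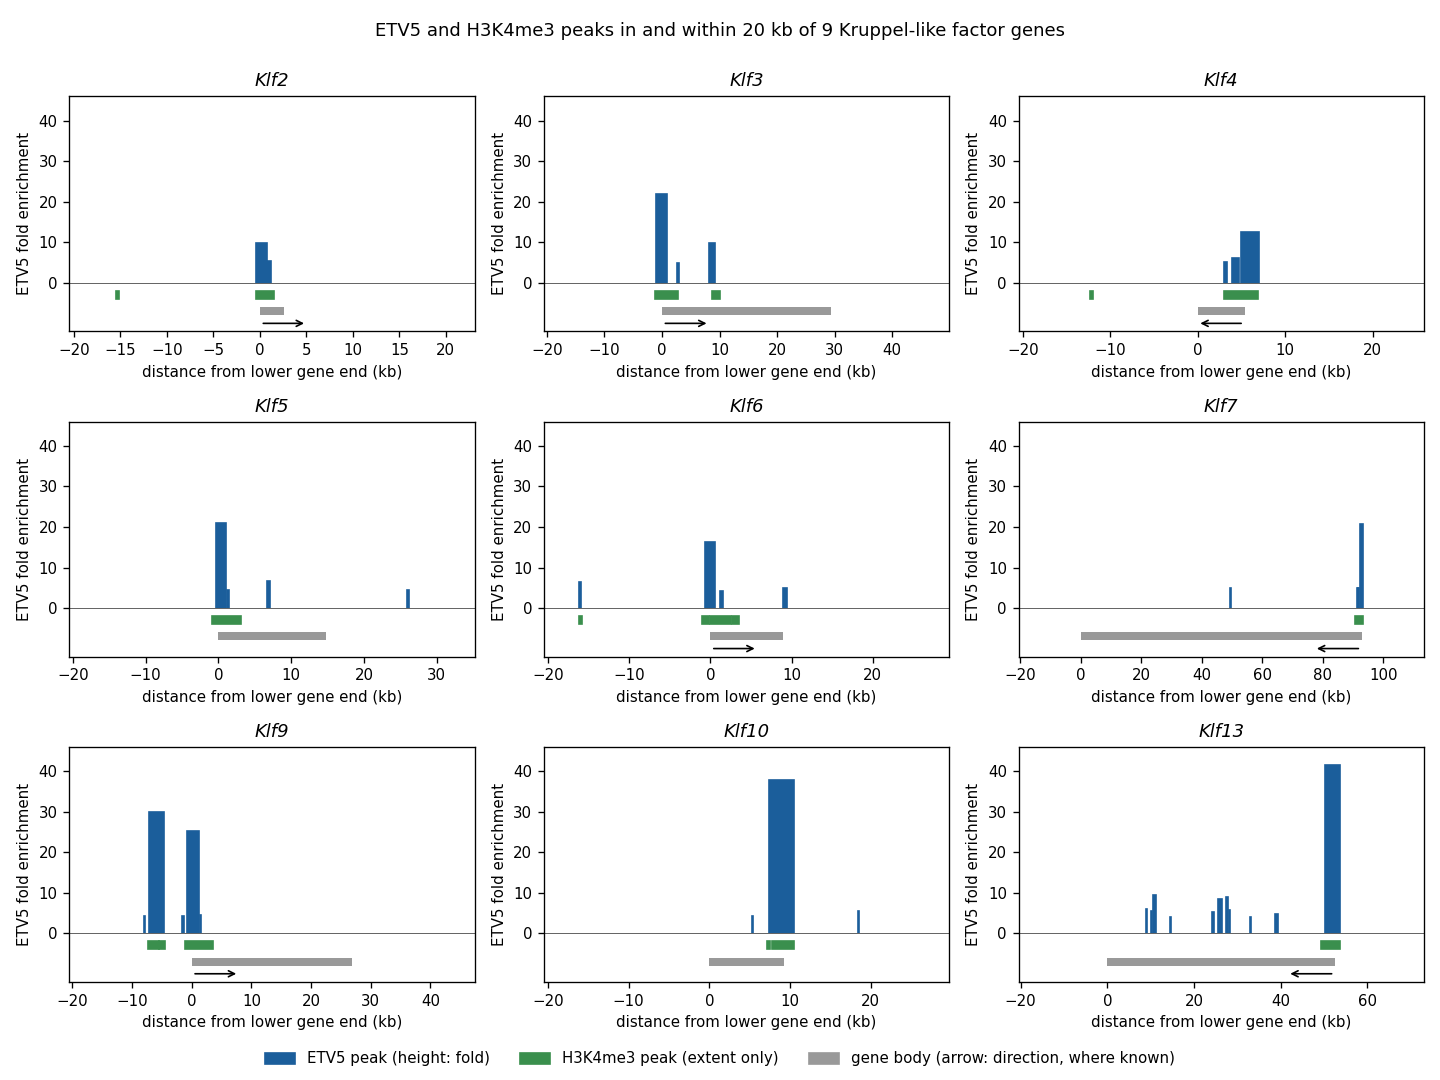
ETV5 peaks (blue, height is the fold enrichment) and H3K4me3 peaks (green, extent only) around each of the 9 genes, with distance in kb from the lower-coordinate end of the gene body (grey) on the x axis, which is scaled separately for each gene. In 8 genes the highest ETV5 peak stood over the H3K4me3 peak at one end of the gene, in Klf9 it stood upstream, and in Klf13 10 low peaks were spread through the gene.

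In all 9 genes the highest ETV5 peak overlapped an H3K4me3 peak, as it did in 86.2% of the 15021 protein-coding genes with ETV5 and in 93.2% of those that also had H3K4me3 in the window, so this was the usual arrangement. Apart from the highest peak of each gene, 30 ETV5 peaks remained, with a median fold of 4.99 and 6 to 52 fragments at the summit. Of the 30, 1, at the start of Klf9, reached a fold of 10. Leaving out the highest peak of each gene makes the rest lower by construction, and no such count is given for other genes. The highest fold was 1.18 (Klf9) to 6.91 (Klf10) times the next in the same gene, with a median of 2.57, against a median of 1.74 over the 10786 protein-coding genes with 2 or more ETV5 peaks and H3K4me3 in the window.

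The genes whose proteins can recruit SIN3 had the 3 highest ETV5 folds, from 29.8 to 41.4, whereas the 5 activator genes ranged from 9.74 to 20.9. This grouping was looked at after the values were seen and was not tested. By the same measure the other genes of that group, which are not among the 9, were mixed, with a fold of 52.6 at Klf16, 9.42 at Klf11 and no ETV5 peak listed at Klf14. Within 1 kb of the ends of Klf16 itself the highest ETV5 fold was 20.8. The H3K4me3 folds overlapped, at 32.7 to 65.7 in the 3 SIN3-recruiting genes and 19.8 to 59.4 in the 5 activator genes.

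Klf13, which encodes a factor that recruits SIN3 and is known for control of chemokine genes in T lymphocytes, had both the highest ETV5 peak and the most ETV5 peaks. The highest peak (chr7:63936588-63939983, GRCm38) was 3396 bp wide, with a pileup of 84 fragments (interval 67.0 to 104) and a fold of 41.4. Its summit lay 1478 bp downstream of the start and inside the gene, and 99.6% of its length was within a 4306-bp H3K4me3 peak of fold 53.2. The other 10 ETV5 peaks all lay inside the gene, 13280 to 43464 bp downstream of the start, and none overlapped H3K4me3. Their folds were 3.91 to 9.39, with a median of 5.60. Of the 10, 3 had a −log10 q of at least 10, a stricter threshold than the authors' q-value of 0.05.

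The strongest of these inner peaks at Klf13 (chr7:63896799-63897521) had a pileup of 24 fragments (15.4 to 35.7) and a fold of 9.39, and its summit also lay in the lncRNA gene Gm27252. The next were at chr7:63913839-63914204, with 17 fragments (9.90 to 27.2) and fold 8.94, and at chr7:63911881-63912723, with 16 fragments (9.15 to 26.0) and fold 8.34. The peak farthest from the start (chr7:63895266-63895516) had 9 fragments (4.12 to 17.1) and fold 5.98. One of the weaker ones, of fold 4.07, lay in E030018B13Rik, a protein-coding gene inside Klf13. The gene table gives only the ends of each gene, so exons and introns were not told apart.

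With 11 peaks Klf13 was at the 97.2nd percentile of all protein-coding genes by number of ETV5 peaks, and with 1.19 peaks per 10 kb at the 87.1st percentile of those with ETV5. The 3 protein-coding genes at least 100 kb away that were most like it by percentile rank of 4 measures (the number of ETV5 peaks, the highest ETV5 fold, the bases under H3K4me3 and the highest H3K4me3 fold) were Lrp5, with 14 ETV5 peaks and a highest fold of 40.3, Smad3, with 9 and 39.5, and Carns1, with 11 and 41.7. The mean differences in rank were 1.02, 1.06 and 1.39 percentile points, over 1 ETV5 and 1 H3K4me3 library.

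Klf10, also named TGF-beta-inducible early gene, had the second highest ETV5 fold. Its main peak (chr15:38298834-38301991) was 3158 bp wide, with 68 fragments (52.8 to 86.2) and a fold of 37.7. It was the largest step within a gene, 6.91 times the fold of the next ETV5 peak there. The summit lay inside the gene, 1108 bp from the nearer gene end, and also in the lncRNA gene Gm35248, which overlaps that end. The peak reached over 2 H3K4me3 peaks, of fold 32.7 (2694 bp) and 5.42 (372 bp), and covered the larger whole. By rank, Klf10 stood at the 85.2nd percentile for ETV5 among genes with ETV5 but at the 34.9th for H3K4me3 among genes with H3K4me3. The other peaks were narrow, 203 bp each and equal to the fragment length used in calling. One lay inside the gene with 7 fragments (2.81 to 14.4) and fold 4.37, and one lay 9267 bp beyond that end with 8 fragments (3.45 to 15.8) and fold 5.46.

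Klf9, a repressor gene induced by glucocorticoid and thyroid hormone, was the only one of the 9 with a pair of ETV5 peaks of fold 10 or more. The stronger (chr19:23134027-23136522) was 2496 bp wide with 59 fragments (44.9 to 76.1) and a fold of 29.8. Its summit was 6208 bp upstream of the start, inside the lncRNA gene 2410080I02Rik, where H3K4me3 was low, with 2 peaks of fold 9.57 and 8.45. The second (chr19:23140516-23142436) had 52 fragments (38.8 to 68.2) and a fold of 25.3, with its summit 572 bp downstream of the start. It lay wholly in an H3K4me3 peak of 4633 bp and fold 65.7, which put Klf9 at the 99.6th percentile of marked genes by H3K4me3 fold. The pileups of both ETV5 peaks overlapped in their counting intervals, while the H3K4me3 pileups of 60 (45.8 to 77.2) upstream and 418 (379 to 460) at the start did not. Of the 3 weak peaks at Klf9, of fold 4.13 to 4.45, the farthest had its summit 7919 bp upstream.

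Klf3, the CtBP-binding repressor gene, had 3 ETV5 peaks. The main one (chr5:64802403-64804413) had 48 fragments (35.4 to 63.6) and a fold of 21.8, with its summit 502 bp upstream of the start. That summit lay within Gm38457, a protein-coding gene that overlaps the start of Klf3. A second peak (chr5:64811712-64812815) inside the gene, 8671 bp downstream of the start, had 21 fragments (interval reaching up to 32.1) and a fold of 9.79, and it shared 47.8% of its length with an H3K4me3 peak of fold 6.74. The weakest had 11 fragments (5.49 to 19.7) and a fold of 4.89 at the edge of the main H3K4me3 peak, which was 3954 bp wide and of fold 41.7.

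Klf5, the activator gene of proliferating epithelium, had its main ETV5 peak (chr14:99298321-99299738) at the lower-coordinate end of the gene, with 49 fragments (36.3 to 64.8) and a fold of 20.9. The summit lay 158 bp inside the gene. The whole peak was within a 4084-bp H3K4me3 peak of fold 59.4, the second highest of the 9. Beside it lay a peak of 8 fragments (3.45 to 15.8) and fold 4.41. Farther inside the gene, 6914 bp from the end, a peak outside H3K4me3 had 14 fragments (7.65 to 23.5) and fold 6.68, and beyond the other end, 11312 bp away, lay one of 7 fragments (2.81 to 14.4) and fold 4.37. The H3K4me3 rank of Klf5 was the 96.7th percentile and its ETV5 rank the 60.9th.

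Klf7, best known in neurons, and Klf6, an injury-induced activator gene, had main peaks of similar pileup. At Klf7 the peak (chr1:64121623-64122636) had 39 fragments (27.7 to 53.3) and a fold of 20.7. Its summit lay inside the annotated gene, and also in the annotated gene Gm35880, 553 bp upstream of the Klf7 start in the promoter table. Only 17 of the 250 bases before that start lay under an ETV5 peak, while all of them lay under H3K4me3. A pair of weaker peaks followed within 1 kb downstream of the start, of fold 4.91 and 4.93. A single peak of 7 fragments (2.81 to 14.4) and fold 4.93 lay 42324 bp into the gene, outside H3K4me3.

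At Klf6 the main ETV5 peak (chr13:5860808-5862114) had 30 fragments (20.2 to 42.8) and a fold of 16.4, with its summit 363 bp upstream of the start. It bridged a 70-bp interval between 2 H3K4me3 peaks, of fold 25.9 upstream and 56.9 over the start, so that 94.6% of it lay in H3K4me3. A small ETV5 peak 16087 bp upstream, of 10 fragments (4.80 to 18.4) and fold 6.41, coincided with a 366-bp H3K4me3 peak of fold 3.52. A further pair had 6 and 7 fragments, with folds of 4.10 inside the gene and 4.94 just past its far end.

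Klf4, a factor of epithelial differentiation and of reprogramming, and Klf2, a factor of endothelial and lymphocyte quiescence, had the lowest values of both antibodies. The main Klf4 peak (chr4:55532052-55534078) had 27 fragments (17.8 to 39.3) and a fold of 12.5, with its summit 383 bp upstream of the start and inside the lncRNA gene Gm12506, whose annotated body lies beside Klf4. Peaks of 13 fragments (6.92 to 22.2) with fold 6.23 and of 10 fragments (4.80 to 18.4) with fold 5.04 followed 837 and 2191 bp downstream of the start. All 3 overlapped the same 3812-bp H3K4me3 peak, of fold 25.1.

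At Klf2 the main peak (chr8:72318597-72319778) had 29 fragments (19.4 to 41.6) and a fold of 9.74, with its summit 182 bp downstream of the start. Klf2 was thus lowest by fold but not by fragments, since the main Klf4 peak had 27 at a fold of 12.5. A second had 11 fragments (5.49 to 19.7) and a fold of 5.34, 979 bp downstream. Both overlapped a 1927-bp H3K4me3 peak of fold 19.8, the narrowest of the 9 main H3K4me3 peaks. The pileups of the main peaks at Klf2, Klf3, Klf4, Klf5, Klf6 and Klf7 all had overlapping counting intervals. Overlap of such intervals does not show that counts are alike, and the order of these genes in number of fragments was not tested. The interval of Klf13 lay above those of Klf2, Klf3, Klf4, Klf5, Klf6 and Klf7, and overlapped those of Klf9 and Klf10.

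**Figure D2:**
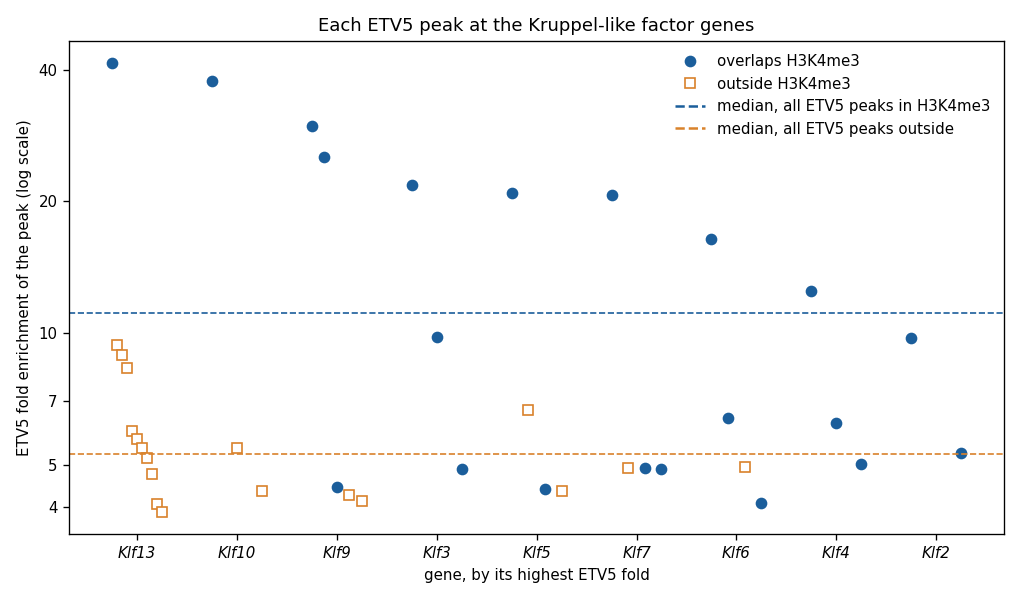
Fold enrichment (log scale) of each of the 39 ETV5 peaks, by gene in order of the highest fold. Filled circles are peaks that overlap H3K4me3 and open squares those outside it, and dashed lines are the medians of all ETV5 peaks inside (11.1) and outside (5.30) H3K4me3. No peak outside H3K4me3 exceeded a fold of 9.39.

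By number of peaks, 8 of the 9 genes had 3 or more ETV5 peaks, all but Klf2, against 37.1% of protein-coding genes and 54.1% of those with H3K4me3. The median number was 4, against 2 over all protein-coding genes and 3 over those with H3K4me3. The KLF windows were of usual length, with a median of 54722 bp against 57168 bp over all genes, and the median density was 0.662 peaks per 10 kb, against 0.390 over genes with H3K4me3. Many of the 39 peaks were weak, as 17 had under 10 fragments and 6 had the minimum width of 203 bp. Such shares over the whole ETV5 list are not given here, so this is not shown to be particular to the KLF genes. The median fold of the 39 was 5.46, against 6.60 over all ETV5 peaks. With −log10 q of at least 10, 14 peaks remained and the median number was 1. Each of the 9 genes kept at least 1, as did 59.0% of protein-coding genes and 87.6% of those with H3K4me3.

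Of the 39 ETV5 peaks, 21 overlapped H3K4me3 (53.8%, Clopper-Pearson interval 37.2 to 69.9), and 15229 of the 31156 ETV5 peaks on assembled chromosomes did (48.9%, 48.3 to 49.4). The share rested on Klf13, whose 10 inner peaks made up most of the 18 peaks outside H3K4me3. Without Klf13 it was 20 of 28 (71.4%, 51.3 to 86.8). The median fold at the KLF genes was 9.74 for peaks inside H3K4me3 and 5.06 for peaks outside it. The median width was 1014 bp inside H3K4me3 and 249 bp outside it. The 8 outside peaks at genes other than Klf13 had folds of 4.13 to 6.68 and at most 14 fragments.

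Conversely, 15 of the 18 H3K4me3 peaks held ETV5 (83.3%, 58.6 to 96.4), against 84.2% of the whole list. The 3 without it were all weak, of fold 6.66 with its summit 15313 bp upstream of the start of Klf2 (chr8:72303540-72303948), 9.10 beyond the far end of Klf4 (chr4:55514775-55515205) and 4.95 inside Klf6 (chr13:5864153-5864954). Some H3K4me3 peaks that held ETV5 were as weak, such as those of fold 3.52 at Klf6 and 5.42 at Klf10. Nearly all of the 9 genes also had a wide H3K4me3 peak. The widest per gene ranged from 1927 bp at Klf2 to 4633 bp at Klf9, with a median of 3812 bp, against a median of 1598 bp for the widest peak of all protein-coding genes with H3K4me3. In 8 of the 9, all but Klf2, it reached the widest decile of the H3K4me3 list, which began at 2308 bp, as it did in 11.4% of protein-coding genes and 17.2% of those with H3K4me3. The top decile of ETV5 folds, which began at 22.1, was reached at 3 of the 9 (Klf9, Klf10 and Klf13), near the background of 25.1% of protein-coding genes and 38.0% of those with H3K4me3.

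**Figure D3:**
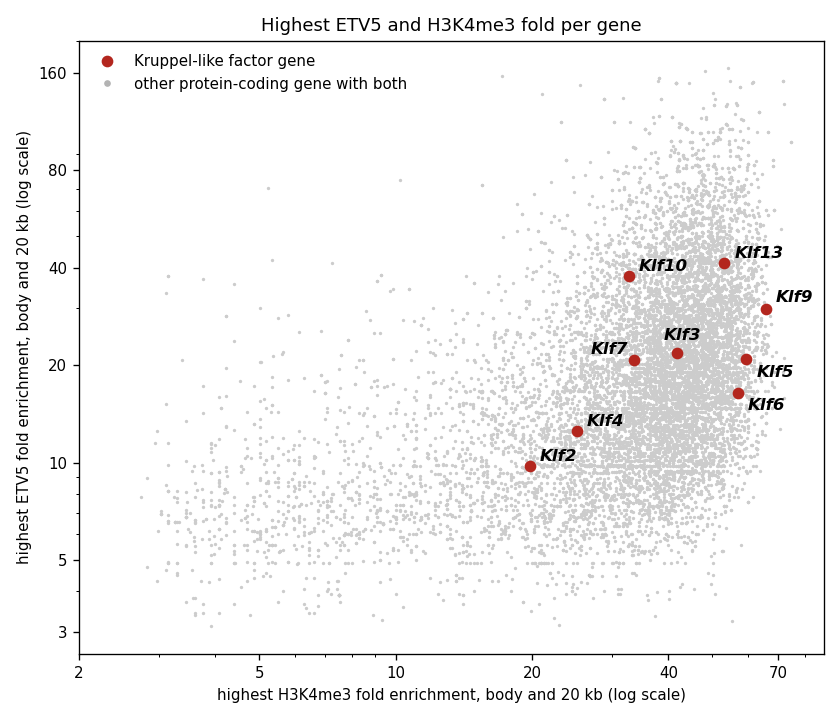
Highest ETV5 fold (y axis, log scale) against highest H3K4me3 fold (x axis, log scale) in the body and 20 kb, for the 9 KLF genes (red) and the other protein-coding genes that have both (grey). Klf2 and Klf4 are lowest for both antibodies, Klf9 is farthest right at 65.7, and Klf10 is high for ETV5 (37.7) at an H3K4me3 fold of 32.7.

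ETV5 and H3K4me3 folds ranked the 9 genes only loosely alike, with a Spearman correlation of 0.47, the same as the 0.47 over the 13891 genes with both. These are correlations across genes of 2 libraries, and genes are not replicates. Folds of the 2 lists were not put on one scale, because the ETV5 library held 5715049 tags against 34907608 for H3K4me3 and each was called against a different input.

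Within 1 kb of a start in the promoter table, ETV5 summits lay at 6 of the 7 genes with a start, all but Klf13, and at 54.9% of 17491 protein-coding genes. That background includes genes without H3K4me3, whereas all 7 KLF genes had an H3K4me3 summit within 1 kb of a start. Klf9 and Klf13 differ from the rest in where the highest summit lies, 6208 bp upstream and 1478 bp downstream. In the other 5 it lay between 182 and 553 bp from the start, upstream at Klf3, Klf4, Klf6 and Klf7 and downstream at Klf2. The Klf13 peak nevertheless covered the whole 250 bases before its start.

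Counting only peaks whose nearest protein-coding gene body was the KLF gene kept 38 of the 39 ETV5 peaks. The exception was the main Klf3 peak, whose summit lay in Gm38457 and outside Klf3. The Klf3 peak of fold 4.89 and the Klf13 peak of fold 4.07 were kept, although their summits lay in another protein-coding gene as well as the KLF gene. This assignment does not consider lncRNA genes, such as those at the summits of Klf4, Klf9, Klf10 and Klf13 named above. The limit of 20 kb mattered for a few peaks beyond Klf3 and Klf13. Just inside it lay the Klf6 peak of fold 6.41, 15929 bp from the gene body. Just outside lay a peak of 16 fragments and fold 9.71, 27239 bp beyond the far end of Klf13 (chr7:63858569-63859112), and one of 30 fragments and fold 16.4, 28705 bp beyond Klf3 (chr5:64861606-64862323), each overlapping H3K4me3.

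Among the 17 other genes of the KLF and SP families, which bind the same kind of box, 15 had ETV5 and 15 had H3K4me3 in the window, and 11 reached a fold of 10. Over all protein-coding genes 68.6% had ETV5, 66.0% had H3K4me3 and 51.4% reached that fold, as did 77.1% of those with H3K4me3. The highest folds of these other KLF and SP genes had a median of 23.1, close to that of the 9. Sp2 had the highest, at 55.2, but no ETV5 peak within 1 kb of its own gene ends. Klf16 followed at 52.6, with a fold of 20.8 within 1 kb of its own ends. Klf14 and Klf17 had no ETV5 peak. The SP gene with the strongest peak at its own end was Sp3, at 52.5, named after the values were seen.

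The partners of the KLF proteins were also covered. All 10 cofactor genes, for CtBP, SIN3, histone deacetylases and acetyltransferases, had ETV5, with a median highest fold of 25.6. The deacetylase gene Hdac2 had a fold of 116 and Hdac3 one of 64.1, although the fold within 1 kb of the ends of Hdac3 was 10.8. Of 7 genes of the ERK5 and MEF2 route, which induces Klf2 and Klf4 in endothelial cells, 6 had ETV5, with Mef2a at 49.5, more than 1 kb from its own gene ends, Mef2d at 27.7 and no ETV5 or H3K4me3 peak at Mef2c. All 8 genes of KLF protein turnover had ETV5, the highest at the F-box gene Fbxo22 (59.6) and the deubiquitinase gene Bap1 (47.7). Their ETV5 shares stand beside 68.6% of all protein-coding genes and 96.2% of those with H3K4me3.

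The label of the cells was checked against markers. H3K4me3 lay within 1 kb of a gene end at 10 of 10 AT2 markers, among them Sftpc and Abca3, at 2 of 10 endothelial markers (Esam and Cldn5), at 3 of 10 leukocyte markers (Cd68, Spi1 and Cd14) and at 0 of 10 mesenchymal markers. In body and 20 kb the counts with H3K4me3 were 10 of 10 AT2, 5 of 10 endothelial, 5 of 10 leukocyte and 0 of 10 mesenchymal markers. The share of all protein-coding genes in that window was 66.0%, and no such share is given for 1 kb of a gene end. The 5 endothelial markers, listed because Klf2 and Klf4 also act in endothelium, had H3K4me3 folds of 38.5 (Ramp2), 29.4 (Egfl7), 24.6 (Esam), 5.80 (Tek) and 4.39 (Cldn5), and Pecam1, Cdh5, Kdr, Tie1 and Sox17 had no H3K4me3 peak there. The part of other cell types in the KLF peaks was not tested.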

How the data were processed

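ETV5 and H3K4me3 were each profiled by ChIP-seq in 1 library of mouse AT2 cells, grouped by the antibody in the labels. The file headers and the submitters' processing notes give MACS2 (2.1.0.20150420) as the peak caller, run on each library at a q-value of 0.05 with at most 1 tag per position. An aligner was not given in the sources used here. Per the file headers, 5715049 ETV5 tags were set against 27495486 input tags, and 34907608 H3K4me3 tags against 44758677 tags of another input. Tags were 75 bp long for ETV5 and 50 bp for H3K4me3. The fragment lengths used in calling were 203 and 288 bp, so peak widths of the lists are not on one scale either. Pileup signal (fragments at the summit, not scaled for ChIP), the fold enrichment ratio, −log10 p-values and −log10 q-values are as the authors deposited them. The submitters' notes name mm9, but ETV5 peaks on Y reach 90.8 Mb, where the last GRCm38 gene ends, and a GRCm38.p6 RefSeq start was within 1 kb of 64.3% of H3K4me3 summits, so coordinates are given as GRCm38.

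Peaks on assembled chromosomes were assigned to gene bodies of the RefSeq table (49939 genes) plus 20 kb in Python 3.11.15 (pandas 2.3.3, numpy 2.4.6, scipy 1.17.1), and counting was tested on simulated data. Figures used matplotlib 3.10.9. Pileups have exact Poisson 95% intervals, which for PCR-amplified reads cover counting error only. Shares have exact Clopper-Pearson 95% intervals, which treat peaks as independent. No test across genes or libraries was made. The members and gene lists were chosen with earlier results of these data known. Named were all members with up to 3 peaks of highest fold and the peak farthest from the start, and in each list the 2 highest folds and up to 2 members without ETV5. Other named genes were chosen after their values were seen. Alternatives covered stricter thresholds, other windows, overlaps and assignments, and merged peaks and a count without Klf13 were added after.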

Additional observations from a re-analysis of the deposited data

How the results depend on the processing

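The main results were recomputed under 42 alternatives, of which 34 stayed within 1.5 times of the count or within the counting interval. With −log10 q of at least 10 the 39 ETV5 peaks at the KLF genes became 14, the share in H3K4me3 78.6% and the median number per gene 1. With a fold of at least 10 these were 9 peaks, 100% and 1. Both thresholds remove weak peaks by construction. Without Klf13, an alternative chosen after seeing the data, the share was 71.4%. Counting all annotated genes gave 24929 with an ETV5 peak in the window, from a larger table, against 15021 protein-coding genes. Windows of 5 and 50 kb, overlap by 50% or by summit, nearest-gene assignment, other distances from the start and merging peaks within 500 bp (31 ETV5 peaks, also added after seeing the data) changed no result by more. The ETV5 depth limits weak peaks, where 6 fragments carry an interval of 2.20 to 13.1. No paired analysis was possible because each antibody has 1 library.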
